A study of Mus musculus with 6 samples.

Results

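The Hox genes of the 4 mouse clusters, Hoxa, Hoxb, Hoxc and Hoxd, were followed in C2C12 cells, a mouse myoblast line that forms multinucleate muscle fibres when serum is lowered. Members were all genes whose symbol is Hox, a cluster letter from a to d and a number, found through the RefSeq accession printed for each array probe. There were 39 such genes among the 20659 gene symbols on the array, with 43 probes, and every one of the 39 had at least 1 probe. The Hoxa cluster gave 11 genes, Hoxb 10, Hoxc 9 and Hoxd 9.

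Cells of both groups were grown in 10% fetal bovine serum, transfected, and then kept in 2% horse serum for 2 days to differentiate. The si-NC group received the control oligonucleotide and the si-SYISL group an oligonucleotide against the long noncoding RNA SYISL. Each group had 3 single-colour Agilent arrays, each from 1 µg of total RNA labelled with Cy3. SYISL has been described as an RNA that recruits Polycomb repressive complex 2 to muscle genes, and Hox clusters are the textbook targets of Polycomb repression, so the comparison asks what the knockdown did to them. No probe was assigned to SYISL itself, so the level of the knockdown was not checked here.

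Hox genes encode homeodomain transcription factors that give cells of the embryo their position along the head-to-tail axis and, for Hoxa and Hoxd, along the limb. Within a cluster the genes lie in the order in which they are expressed along the axis, with low numbers towards the head and high numbers towards the tail, and genes of the same number in different clusters are paralogs. Cells derived from the trunk or limb keep part of this pattern in culture. Polycomb complexes hold unused Hox genes silent, MLL complexes keep used ones active, retinoic acid activates the low-numbered ones, and Hox proteins bind DNA together with Pbx and Meis partners.

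In both groups, replicates 1 and 3 were closer to each other than repeated spots of 1 probe are on 1 array. The chi-square per replicated probe was 0.224 for the si-NC pair and 0.207 for the si-SYISL pair, against 24.8 to 164 in the other 13 pairs of arrays. Their mean entered the fit as 1 sample beside replicate 2, giving each group 2 samples. The labels do not say that replicates came from separate cultures, and the p-values then measure only the spread between these samples. On the 3 si-NC arrays 78.2%, 84.6% and 79.0% of spots were well above background, and on the 3 si-SYISL arrays 90.0%, 87.9% and 90.6%. Array number limits the precision of every value. All 12 myoblast and myotube markers were above background on 6 arrays, with a summed scaled intensity of 168799 to 184483 on si-NC and 216232 to 219415 on si-SYISL arrays. The members did not move together: 6 were above and 2 below the controls in both samples, beside 46.3% and 15.8% of all features. The 2 lower ones were Myod1 and Chrna1, with log2 differences relative to all features of −0.78 and −0.28. Summed markers of other cells were 2390 to 2606 against 2772 to 2845 for endothelium (4 genes), 1300 to 1437 against 1291 to 1435 for leukocytes (3), and 904 to 1134 against 1154 to 1271 for epithelium (4). They were 5969 to 6440 against 2817 to 3291 for neural and glial cells (5, mostly Tubb3), and 3971 to 4796 against 2436 to 2979 for adipocytes and chondrocytes (5, mostly Sox9). None of these genes was below background on all 6 arrays. All samples were labelled as C2C12 cells, and these markers do not show that other cell types were present. The part of these shifts in any Hox value was not tested, and in bulk RNA fewer cells of a type and less RNA per cell cannot be told apart.

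C2C12 cells gave signal from all 4 clusters. Of the 39 genes, 27 were well above background on all 6 arrays at their best probe, among them all 11 Hoxa genes, 6 of 10 Hoxb genes, 7 of 9 Hoxc genes and 3 of 9 Hoxd genes. By position along the cluster these were 4 of the 8 genes of paralog groups 1 to 3, 12 of the 15 genes of groups 4 to 8, and 11 of the 16 genes of groups 9 to 13. Hoxb8, Hoxb13 and Hoxd13 were above background on no array; Hoxb13 and Hoxd13 are the genes nearest the tail end of their clusters. Counted by probe, 67.4% of the 43 Hox probes were above background on all 6 arrays, against 76.4% of all 39429 probes, and 6.98% on no array, against 8.36%. Pecam1 of endothelium and Pdx1 of pancreas, neither a muscle gene, also passed on all 6 arrays. Their scaled intensities were 823 to 1029 and 51.1 to 69.7, and why they passed was not tested. A dim Hox probe that passed the flag is not shown to be a transcribed gene.

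Detection shifted between the groups in 1 direction. Hoxb1, Hoxb2, Hoxc8, Hoxc11, Hoxd8 and Hoxd9 were above background on all 3 si-SYISL arrays but not on all si-NC arrays, and no Hox gene had the reverse. Over probes this was 7 of 43, or 16.3%, against 10.1% of all probes on the array. The reverse was 0% of Hox probes and 0.129% of all probes, and 0.0406% of all probes passed on every si-NC array and on no si-SYISL array. Hox probes above background numbered 29, 36 and 31 on si-NC replicates 1, 2 and 3, and 38, 38 and 40 on the si-SYISL replicates. The median local background was 42, 36 and 50 in the controls and 34.5, 34 and 40.5 in the knockdown. It was lower in si-SYISL within each scan, and its part in the shift was not tested. Passing the flag also took less signal in the knockdown for replicates 1 and 3. The dimmest passing scaled intensities there were 11.95 and 11.98, against 24.0 and 25.17 in the controls. Replicate 2 went the other way, with 19.26 in the knockdown against 15.3. The part of these cutoffs in the shift was not tested either.

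**Figure D1:**
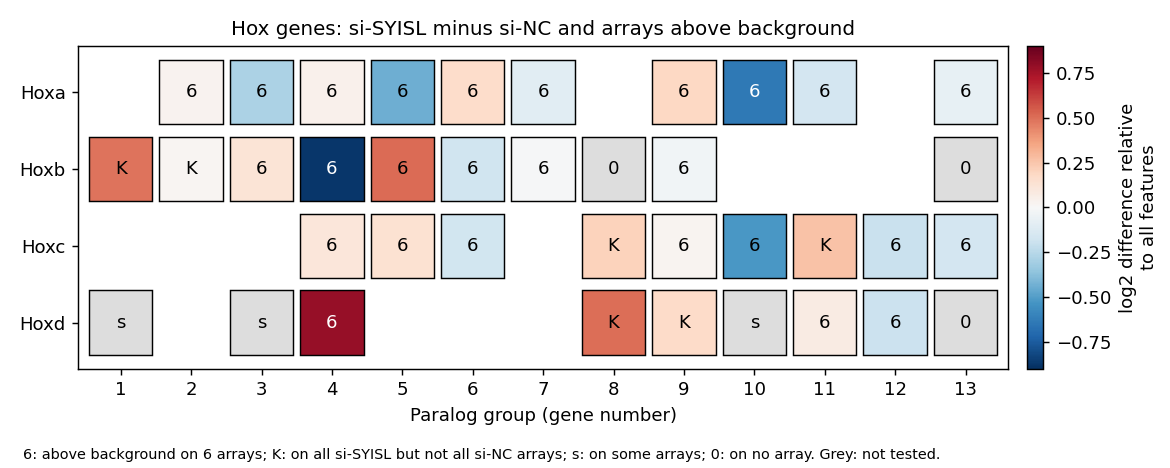
Each box drawn is 1 Hox gene, placed by cluster (rows) and paralog group (columns, 1 to 13); colour gives the log2 difference, si-SYISL minus si-NC, relative to the median of all features, and grey boxes were not tested. The sign in a box says on how many arrays the gene was above background (6, all 6; K, all si-SYISL but not all si-NC arrays; s, some; 0, none); every Hoxa box drawn carries a 6, and the blue and red boxes are scattered over the 4 clusters.

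For the comparison of levels, 33 of the 39 genes passed the filter on dim probes, which asks for the background flag on all 3 arrays of either group. A gene that passed only through its si-SYISL arrays is tilted towards a higher value there by that filter. Values per array are given as scaled intensity, the background-subtracted signal after each array was brought to the same 75th percentile. Log2 differences are si-SYISL minus si-NC, from limma, and are given relative to the median of all 28553 features, which was 0.16. They carry the standard error of the fit (2 samples per group), and the limma p refers to the difference before that median was subtracted. Benjamini-Hochberg adjustment ran over all features with a threshold of 0.05, under which 0% of features were called in either direction and the smallest adjusted p of any feature was 0.0842.

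No Hox gene passed the adjusted limma test, and the smallest adjusted p of a Hox gene was 0.130. With the 6 arrays taken as 6 samples, which counts the near-identical pairs as independent, 9 Hox genes were called, or 27.3% of 33 against 34.2% of all features. At an unadjusted p under 0.05, 4 Hox genes were higher in si-SYISL, or 12.1% of 33 against a background of 16.8% of all features. On the same terms 3 were lower, or 9.09% against 5.86%. For 14 Hox genes each si-SYISL sample exceeded each control sample, or 42.4% against 46.3%, and for 4 each was lower, or 12.1% against 15.8%. This split depends on the scaling. With quantile normalisation it was 6 above and 6 below (18.2% each, against 30.5% and 23.8% of all features), and with arrays aligned on their median it was 9 above and 8 below (27.3% and 24.2%, against 27.7% and 25% of all features). The median Hox difference was 0.02 relative to all features, and −0.03 over the 27 genes above background on 6 arrays.

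**Figure D2:**
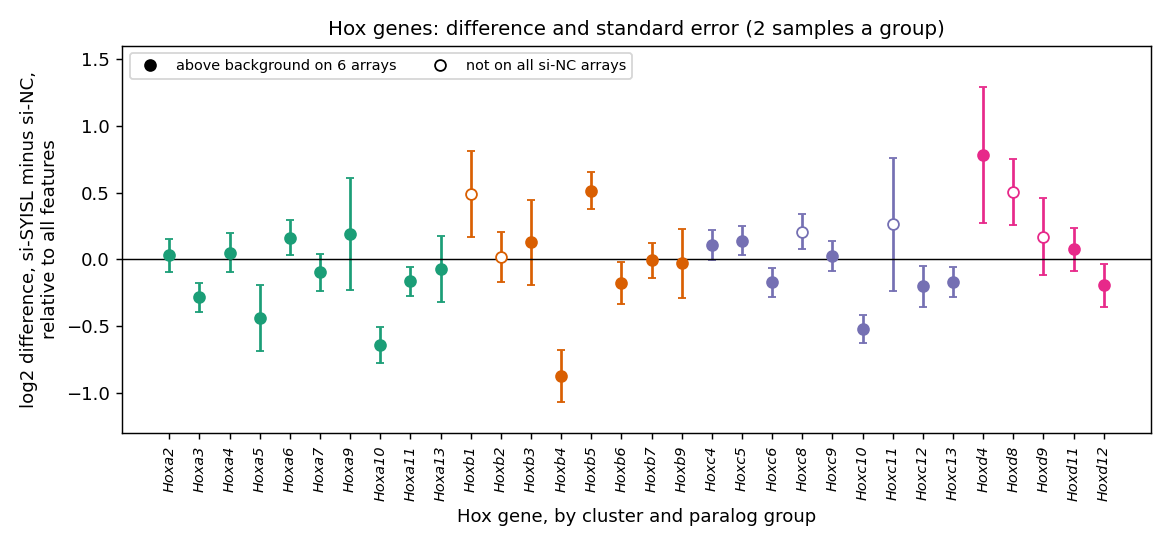
The log2 difference of the Hox genes tested and described here, si-SYISL minus si-NC relative to the median of all features, with its standard error from limma (2 samples a group), ordered by cluster (colour) and paralog group. Open points are genes not above background on all si-NC arrays; Hoxb4 at −0.88 and Hoxd4 at 0.78 are the ends of the range, and the error bars of most genes cross or come near 0.

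The genes with lower signal on every si-SYISL array were Hoxa10, Hoxc10, Hoxb4 and Hoxa3. Hoxa10 and Hoxc10 are paralogs of group 10, which in the embryo pattern the lumbar region and the hindlimb. Hoxa10 had scaled intensities of 2231, 2178 and 2226 on si-NC replicates 1, 2 and 3 and of 1438, 1716 and 1465 on the si-SYISL replicates. The groups did not overlap, and si-SYISL replicate 2 was the nearest to the controls. The relative log2 difference of Hoxa10 was −0.64 ± 0.13 (SE), with an adjusted limma p of 0.165. Hoxc10 had scaled intensities of 6695, 6581 and 6855 against 5217, 5198 and 5184. Its 3 si-SYISL arrays were nearly equal, all under the lowest control, and the relative log2 difference was −0.52 ± 0.11 with an adjusted limma p of 0.174. Within the scan of replicates 1 and 2 the values were −0.65 for Hoxa10 and −0.51 for Hoxc10, and within the scan of replicate 3 they were −0.70 and −0.50. The scan of replicate 3 holds 1 array per group, which nearly repeats replicate 1 of the other scan. Agreement between the scans is therefore not independent support, here or for the genes below. Hoxd10, the other group 10 gene on the array, passed the background flag on 2 of 3 si-SYISL arrays and on none of the controls, so it was not tested.

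Hoxb4, known for expanding blood stem cells when it is overexpressed, had the lowest relative difference among the Hox genes at the probe used for each. Its scaled intensities were 70.2, 92.1 and 74.8 in the controls and 42.6, 56.0 and 45.7 after the knockdown. Replicate 2 was the highest of its group in both groups, and the groups did not overlap. The relative log2 difference was −0.88 ± 0.20, with an adjusted limma p of 0.163, and was −0.88 and −0.81 within the scans of replicates 1 and 2 and of replicate 3. It was −0.42 with normexp background (adjusted p 0.415) and −1.01 with quantile normalisation (adjusted p 0.140). Hoxa3, needed for the thymus, the parathyroid and the neck skeleton, had scaled intensities of 1872, 1828 and 1941 against 1748, 1711 and 1687. The groups did not overlap but lay close together, and the relative log2 difference was −0.29 ± 0.11 with an adjusted limma p of 0.492.

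Hoxb4 and Hoxa10 had the 2 lowest relative differences of the Hox genes at the probe used for each. Hoxd8 passed the background flag in si-SYISL cells alone. The promoter windows of these genes are printed as examples of the windows searched for homeodomain and partner motifs. They are from RefSeq on GRCm38.p6, 300 bases around the annotated start, 5′ to 3′ on the strand of the gene, with the homeodomain core TAAT or its reverse complement ATTA in capitals. Matches may overlap. Hoxa10 has 2 annotated starts.
Hoxa10, chr6:52234890-52235189, minus strand: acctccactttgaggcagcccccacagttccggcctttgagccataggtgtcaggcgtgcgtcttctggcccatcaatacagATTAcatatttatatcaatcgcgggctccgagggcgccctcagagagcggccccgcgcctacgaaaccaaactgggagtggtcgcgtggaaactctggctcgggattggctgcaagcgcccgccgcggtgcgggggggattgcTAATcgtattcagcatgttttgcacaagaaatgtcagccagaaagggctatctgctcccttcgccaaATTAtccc
Hoxa10, chr6:52240805-52241104, minus strand: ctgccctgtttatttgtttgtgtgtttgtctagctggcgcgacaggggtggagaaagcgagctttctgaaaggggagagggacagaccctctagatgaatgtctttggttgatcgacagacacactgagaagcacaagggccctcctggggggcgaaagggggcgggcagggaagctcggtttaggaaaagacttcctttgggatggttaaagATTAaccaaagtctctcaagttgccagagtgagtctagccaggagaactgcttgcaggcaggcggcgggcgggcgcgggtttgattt
Hoxb4, chr11:96318017-96318316, plus strand: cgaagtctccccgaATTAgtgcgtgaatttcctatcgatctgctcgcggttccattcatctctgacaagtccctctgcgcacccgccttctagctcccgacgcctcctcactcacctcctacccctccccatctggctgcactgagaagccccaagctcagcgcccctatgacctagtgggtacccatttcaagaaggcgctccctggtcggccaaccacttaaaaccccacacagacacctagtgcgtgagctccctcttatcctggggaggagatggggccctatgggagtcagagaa
Hoxd8, chr2:74704365-74704664, plus strand: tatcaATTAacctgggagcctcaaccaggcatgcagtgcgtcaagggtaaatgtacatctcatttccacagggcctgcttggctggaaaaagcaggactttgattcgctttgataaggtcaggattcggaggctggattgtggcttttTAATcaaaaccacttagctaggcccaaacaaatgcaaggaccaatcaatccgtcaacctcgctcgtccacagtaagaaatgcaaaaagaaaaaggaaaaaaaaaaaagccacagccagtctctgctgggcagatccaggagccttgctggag

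The Hoxa10 windows hold 21 and 12 CG pairs, the Hoxb4 window 14 and the Hoxd8 window 6. The table held 24 windows for 22 of the 39 Hox genes. TAAT in either orientation was found in 19 of these 24 windows, or 79.2%, against 58.0% of all 32851 windows of the same length. The joint Hox and Pbx motif TGATTNAT, searched on both strands, was in 2 windows, those of Hoxa2 and Hoxd11, or 8.33% against 3.22%. The E-box CANNTG, the core bound by MyoD and its relatives, was in 17 windows, or 70.8% against 72.3%. The retinoic acid receptor motif, AGGTCA repeated after a gap of 5 bases, was in no Hox window, which is 0%, against 0.00913% of all windows. Only 3 of all windows held it, so its absence from 24 Hox windows is uninformative. The Hox windows had a median GC content of 57.7% and a median of 14.5 CG pairs, against 52.7% and 7 in all windows. A match is a description of the letters and not a bound site.

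Signal was higher on every si-SYISL array for Hoxb5, Hoxc8 and Hoxc5, with unadjusted limma p of 0.00644, 0.0454 and 0.0459, none of which passed adjustment. Hoxb5, which acts in neural crest and in the vessel wall, had scaled intensities of 39.4, 34.9 and 42.7 against 61.6, 57.9 and 64.7. The groups did not overlap, the relative log2 difference was 0.51 ± 0.14 with an adjusted limma p of 0.130, and it was 0.53 and 0.50 within the scans. It was 0.23 with normexp background (adjusted p 0.349) and 0.37 with quantile normalisation (adjusted p 0.308).

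Hoxc8 and Hoxc5 are trunk genes of the middle of the Hoxc cluster and their differences were smaller. Hoxc8 had scaled intensities of 29.8, 27.4 and 31.3 against 36.9, 39.9 and 33.5, with 2 of 3 si-NC arrays above background, so it passed the filter through si-SYISL. Its relative log2 difference was 0.21 ± 0.13, with an adjusted limma p of 0.214, but was 0.26 within the scan of replicates 1 and 2 and 0.00 within that of replicate 3, and under quantile normalisation its direction turned (−0.0013). Hoxc5 had scaled intensities of 88.2, 89.5 and 82.5 against 104, 107 and 113, a relative log2 difference of 0.14 ± 0.11 with an adjusted limma p of 0.214. Neither group of arrays overlapped the other for these 2 genes.

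**Figure D3:**
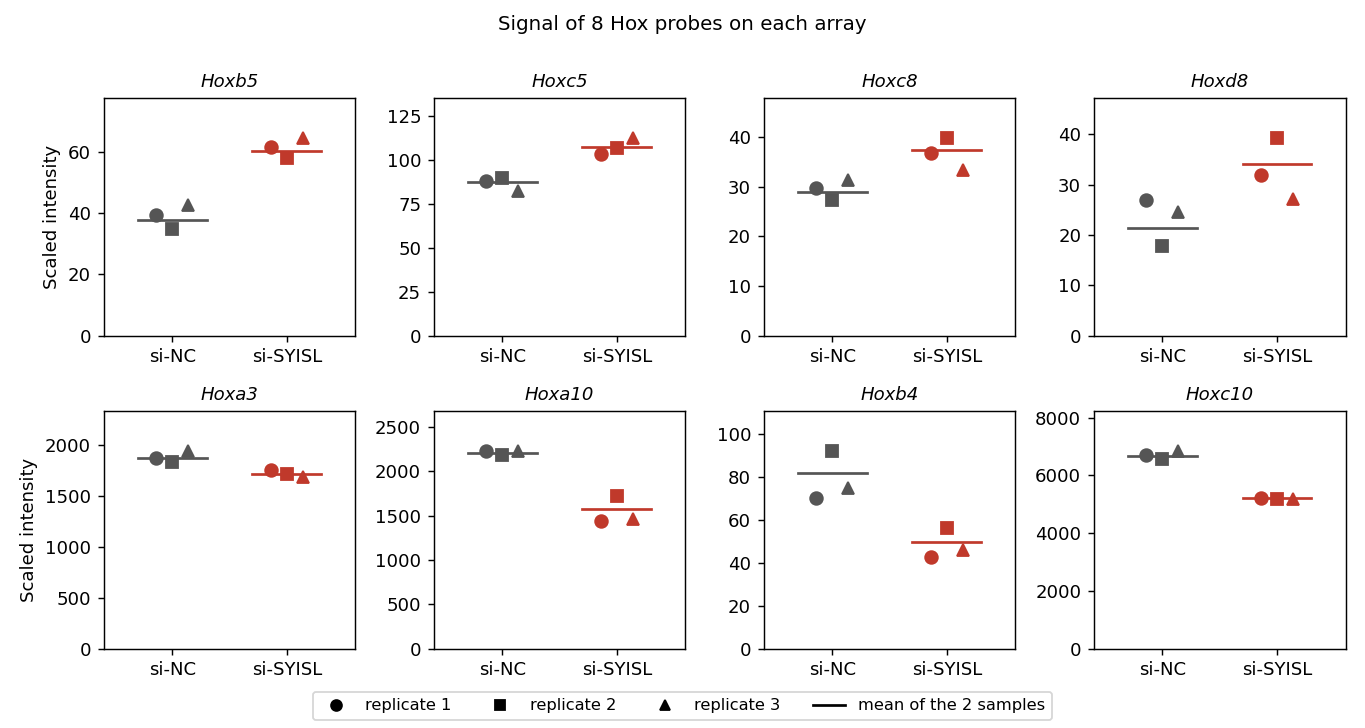
Scaled intensity of 8 Hox probes on each array, si-NC left and si-SYISL right, with a symbol for each replicate number and a line at the mean of the 2 samples of the group; each axis starts at 0 and has its own scale. Hoxb5, Hoxc5, Hoxc8 and Hoxd8 lie higher and Hoxa3, Hoxa10, Hoxb4 and Hoxc10 lower on every si-SYISL array, and replicates 1 and 3 lie side by side.

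Hoxb1 and Hoxd8 were tested and were above background on all 3 si-SYISL arrays and on no si-NC array, a pattern found in 4.65% of Hox probes against 3.04% of all probes. Their fold is a lower bound, set against the higher of the dim probe and the lowest signal that counted as above background on each si-NC array. Bounds are given before the median of all features is subtracted and, named as relative, after. Hoxb1, which specifies the hindbrain segment that gives rise to the facial nerve, had scaled intensities of 9.52, 17 and 10.9 against 17.2, 24.7 and 17.4. Replicate 2 of si-NC lay just under the lowest si-SYISL array. The bound for Hoxb1 was 1.01-fold before the median was subtracted, with none left after it. The relative log2 difference was 0.49 ± 0.32 (adjusted limma p 0.288), and was 0.04 with quantile normalisation, 0.03 with normexp background and −0.018 in the series matrix, so the direction of Hoxb1 is uncertain. Hoxd8, a gene of the trunk, had scaled intensities of 26.9, 17.8 and 24.5 against 31.9, 39.3 and 27.2. The groups came close without overlap, and the bound for Hoxd8 was 1.58-fold, or 1.41-fold relative. On si-NC replicates 1 and 2 the Hoxd8 probe read over the lowest signals that counted, 24.0 and 15.3. The bound is therefore nearly the plain ratio of 1.59-fold, and it is not a minimum over the settings that follow. The relative log2 difference was 0.51 ± 0.25 (adjusted limma p 0.222), with 0.26 under quantile normalisation, 0.22 under normexp, 0.53 in the scan of replicates 1 and 2 and 0.06 in that of replicate 3. Hoxd1 passed on 2 of 3 si-SYISL arrays and on no si-NC array, and was not kept by the filter. It had scaled intensities of 15.6, 20.4 and 12.5 against 23.2, 29.7 and 21.7. Its bound was 1.15-fold, or 1.03-fold relative. On si-NC replicate 2 the Hoxd1 probe read over the lowest signal that counted, 15.3, so this bound is not a strict minimum either. No bound is given for Hoxd10 because it was under 1.

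The other Hoxa genes described spanned relative differences from −0.44 to 0.19. Hoxa2, of the second pharyngeal arch, had scaled intensities of 230.3, 215 and 227 against 266, 239 and 270.4. Hoxa4 had 471, 456 and 462 against 483, 591 and 482. Hoxa6 had 218, 193 and 222 against 253, 269 and 243. These 3 genes were above the controls on every si-SYISL array, with relative log2 differences of 0.03 ± 0.12, 0.05 ± 0.15 and 0.16 ± 0.13. Hoxa5, needed for lung development, had 525, 545 and 528 against 356, 556 and 348. Its replicate 2 in si-SYISL stood with the controls and the other arrays well under them, and the relative log2 difference was −0.44 ± 0.25. Hoxa7 had 2651, 3216 and 2735 against 3182, 2958 and 3212, with overlapping groups. Hoxa9, a regulator of blood progenitors and of muscle stem cells in aged mice, had 2942, 1290.2 and 2943 against 2359, 2656 and 2286. A single array, si-NC replicate 2, set its direction: the relative log2 difference was 0.19 ± 0.42 with it and −0.38 without it, and the second Hoxa9 probe gave −0.12. Hoxa11, needed for the forearm and lower leg and measured by 10 spots, had 9352, 9354 and 9450.5 against 9529, 9153 and 9614, with overlapping groups and a relative 95% interval of −0.46 to 0.13. Hoxa13, of the hand and foot, had 74.6, 59.2 and 77.8 against 58.3, 86.5 and 59.6. Its second probe read 22.4, 119.9 and 30.9 against 28.5, 39.7 and 29.0 and gave a relative difference of −0.90 where the first gave −0.07, so the 2 probes disagree in size and both groups overlap at each.

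Among the other Hoxb genes, no difference exceeded its standard error by much. Hoxb2, of the hindbrain, had scaled intensities of 31.5, 34.5 and 25.3 against 31.9, 39.9 and 30.7, and passed on 1 of 3 si-NC arrays. Hoxb3 had 143, 75.8 and 138 against 124, 123 and 134. A second Hoxb3 probe, at 17.8, 31.3 and 16.5 against 12.6, 20.4 and 13.2 and not kept by the filter, gave a relative difference of −0.68 where the kept probe gave 0.13, so its direction is uncertain. Hoxb6 had 148, 128 and 146 against 122, 149 and 124. Hoxb7 had 135, 121 and 144 against 139, 150.0 and 139.7. Hoxb9 had 51.8, 65.7 and 46.9 against 48.5, 75.9 and 53.9. The arrays of the groups overlapped for all 5 of these genes, though for Hoxb7 both si-SYISL samples were above both si-NC samples. In Hoxb6, Hoxb7 and Hoxb9, which act in the thorax, the relative log2 differences were −0.18 ± 0.16, −0.01 ± 0.13 and −0.03 ± 0.26.

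The other Hoxc genes included several with tight replicates. Hoxc4 had scaled intensities of 11332, 10559 and 11184 against 12844, 13431 and 12913. Hoxc9, of the thorax, had 6999, 6909 and 7269.7 against 7846, 8179.6 and 7756. Both lay above the controls on every si-SYISL array, yet relative to all features the log2 differences were 0.11 ± 0.11 and 0.02 ± 0.11. Hoxc6, of the brachial region, had 13914, 13628 and 14149.5 against 13413, 14053 and 13357, with a relative 95% interval of −0.47 to 0.12. Hoxc13, a regulator of hair keratins, had 1754, 1894 and 1781 against 1865, 1789 and 1847. Hoxc12 had 263, 334 and 271 against 286, 292 and 293. These 3 genes overlapped between groups and had relative log2 differences of −0.17 ± 0.11, −0.17 ± 0.11 and −0.20 ± 0.15. Hoxc11, of the hindlimb, had 22.5, 41.4 and 18.6 against 57.0, 27.5 and 53.9, so that replicate 2 ran against the others in both groups, and the relative log2 difference was 0.26 ± 0.50.

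The Hoxd cluster was the least detected, and 1 array carried its widest value. Hoxd4, a hindbrain and neck gene, had scaled intensities of 34.7, 39.9 and 39.4 against 44.5, 123 and 44.5. All si-SYISL arrays exceeded the controls, but replicate 2 stood far from the other two, and the relative log2 difference of 0.78 ± 0.51 (adjusted limma p 0.312) was 0.10 without si-SYISL replicate 2 and 0.08 within the scan of replicate 3. Hoxd9 had 14.6, 22.4 and 14.8 against 18, 27.4 and 20.2, Hoxd11 had 42.2, 44.9 and 44.1 against 44.8, 58.5 and 47.2, and Hoxd12 had 46.7, 51.6 and 47.6 against 43.5, 54.1 and 42.2. The arrays of their groups overlapped, with relative log2 differences of 0.17 ± 0.29, 0.07 ± 0.16 and −0.20 ± 0.16. For Hoxd11, however, both si-SYISL samples were above both si-NC samples. Hoxd3, not kept, had 18.6, 24.3 and 23.7 against 26.1, 22.3 and 27.2.

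By cluster, the median relative difference was −0.07 over the 11 Hoxa genes tested, 0.01 over 8 Hoxb, 0.02 over 9 Hoxc and 0.17 over 5 Hoxd. All 5 of these Hoxd genes lay in the dimmest of the 4 equal groups of features by mean signal described below. The median relative difference of all features in that dimmest group was 0.20. Hoxd8 and Hoxd9 also passed the filter only through their si-SYISL arrays, which tilts them towards higher values there. By position the median was 0.08 over 6 genes of paralog groups 1 to 3, 0.08 over 14 genes of groups 4 to 8 and −0.07 over 13 genes of groups 9 to 13. Both si-SYISL samples were above both si-NC samples for 3, 9 and 2 genes of these regions and below for 1, 1 and 2, beside 46.3% and 15.8% of all features. The differences between clusters or regions were not tested.

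Dim features of the whole array leaned upward in si-SYISL, and many Hox genes were dim. With features divided into 4 equal groups by mean signal, the median relative difference of all features was 0.20, 0.01, −0.09 and −0.08 from the dimmest to the brightest, and these groups held 13, 7, 8 and 5 Hox genes. In the dimmest group both si-SYISL samples were above both si-NC samples for 57.2% of all features and for 6 of the 13 Hox genes. Over the 20 Hox genes outside that group the median was −0.05. Hoxb5, Hoxc8, Hoxb1, Hoxd8 and Hoxd4 were in the dimmest group, and so was Hoxb4, which had lower values. Hoxa10 and Hoxc10 were in the brighter groups.

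**Figure D4:**
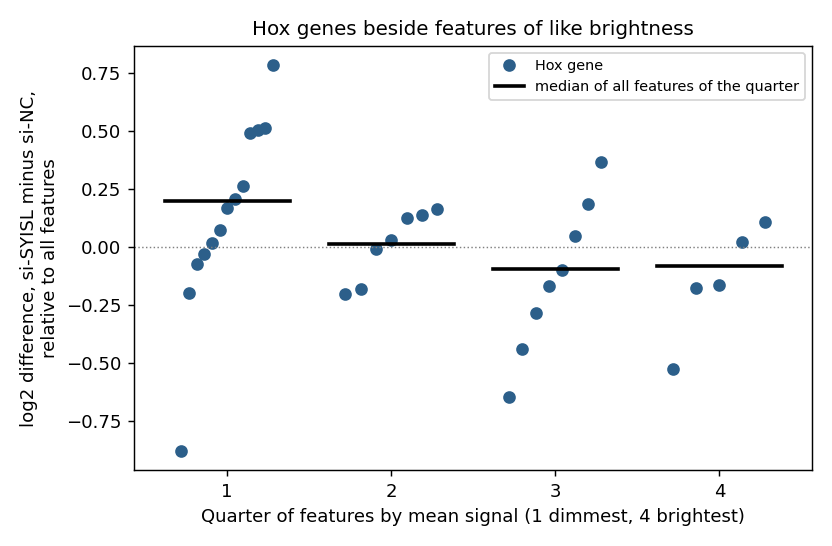
The log2 difference of each tested Hox gene (points, in order of value within a group), si-SYISL minus si-NC relative to the median of all features, by the 4 equal groups of features in order of mean signal; bars are the median of all features in that group, 0.20 in the dimmest and −0.08 in the brightest. The dimmest group holds 13 Hox genes, among them Hoxb4 at the bottom and Hoxd4 at the top.

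The partners and regulators of Hox genes were read from lists, none of which had a member called by limma. Counts of members above and below the controls in both samples are to be set beside 46.3% and 15.8% of all features. Of the 9 TALE cofactors, Pbx, Meis and Pknox, 3 were above and 4 below the controls in both samples, with a median relative difference of −0.20. Pbx3, which binds DNA with Hox proteins and contributes to fast muscle, had scaled intensities of 3391, 3375 and 3488 against 1136, 1931 and 1134. Its si-SYISL arrays were all far under the controls, and the relative log2 difference was −1.36 ± 0.28 (adjusted limma p 0.144), which makes it larger than that of any Hox gene. Meis2 gave −0.60 ± 0.11 (adjusted p 0.150) and Meis3 0.16 ± 0.12 (adjusted p 0.223). Of the 8 related ParaHox, Cdx and Evx genes, 5 were kept, 1 lay above the controls and none below, and the median was 0.04, while Cdx2, Cdx4 and Evx1 were above background on no array.

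Of 17 Polycomb genes, 3 were above and 4 below the controls (46.3% and 15.8% of all features), with a median of −0.26. Suz12, a core subunit of Polycomb repressive complex 2, gave −0.50 ± 0.14 (adjusted limma p 0.247), Cbx7, a reader of its mark, 0.20 ± 0.11 (0.176), and Ezh1, the methyltransferase of resting cells, 0.11 ± 0.12 (0.255). Of 10 listed MLL complex genes, all but Kmt2a were matched to a probe by symbol and kept. Of these 9, 4 were above and 2 below, with a median of −0.16. Of 14 genes of retinoic acid handling and Gdf11, 8 were above and 1 below, beside the same 46.3% and 15.8%, with a median of −0.02. Cyp26b1, the enzyme that degrades retinoic acid in limb and muscle, had scaled intensities of 435, 459 and 453 against 940.4, 735 and 947, none of them overlapping. Its relative log2 difference was 0.72 ± 0.16 (adjusted limma p 0.124), and that of Crabp2, which carries retinoic acid to its receptor, was 0.26 ± 0.11 (0.157).

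Relative differences of the genes beside the clusters ran from −1.48 to 1.58. Those of the Hox genes, at the probe used for each, ran from −0.88 to 0.78. Of 23 listed names, some of them 2 names of 1 gene, 19 were matched to a probe and all 19 were kept. Of these, 6 were above and 5 below (46.3% and 15.8% of all features), with a median of −0.11. Skap1, the neighbour of Hoxb1 and an adaptor known from T cells, had scaled intensities of 57.8, 64.5 and 56.2 against 223, 183 and 231. The relative log2 difference was 1.58 ± 0.16, with an adjusted limma p of 0.0842, the smallest on the array and the same as that of Tubb3. Skap1 was called under normexp background correction, under a variance trend with robust estimation, with 6 arrays as samples, and when si-NC replicate 2 or si-NC replicates 1 and 3 were left out. Ttll6, a tubulin-modifying enzyme next to Hoxb13 at the other end, gave 0.74 ± 0.18 (adjusted p 0.127). Lnpk, an endoplasmic reticulum protein near Hoxd13, gave −1.48 ± 0.44 (adjusted p 0.198). Hoxb13 itself was above background on no array, and Hoxb1 had the bound given above. Of 20 noncoding RNAs of the clusters 2 were matched to a probe by symbol, and the 12195 unnamed probes were not searched for the others. The antisense transcript Hoxa11os gave 0.08 ± 0.13 (adjusted p 0.304; −0.048 without si-SYISL replicates 1 and 3) and Hoxd3os1 was above background on no array.

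Among 23 other homeobox factors of limb and muscle, 18 were kept, 5 above and 6 below the controls (46.3% and 15.8% of all features), with a median of −0.15. Meox1, a somite factor, was above background on all si-SYISL arrays and on no si-NC array. Its scaled intensities were 11.61, 11.81 and 6.79 against 24.59, 27.97 and 24.98. The bound for Meox1 was 1.36-fold, or 1.21-fold relative (adjusted limma p 0.102). Its relative log2 difference ranged from 0.24 to 1.78 over the alternatives, so the bound is not a minimum over the settings. Meox1 was in the dimmest group and passed the filter only through its si-SYISL arrays, which tilts it towards a higher value there. Shox2, a limb factor, gave −1.42 ± 0.24 (adjusted p 0.125). Shox2, Cyp26b1 and Crabp2 were called under the variance trend.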

How the data were processed

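Feature Extraction output of 6 single-colour arrays was used. Per the file headers the deposited intensity, gProcessedSignal, was background-subtracted and detrended within each array by version 11.0.1.1 (10.5.1.1 in the submitters' processing notes), with no normalisation between arrays. Flags of 0 or 1 (unit other, per the file headers) mark spots above background or outlying. The deposited series matrix of log2 values (34456 probes) served as an alternative. Log2 intensities were scaled to the 75th percentile of the non-control spots on their array, outlier spots were left out, and spots of a probe were averaged. Of 39429 probes, 27234 had 1 of 20659 symbols in RefSeq tables (GRCm38.p6) and 12195 stood for themselves. A probe was kept if above background on all 3 arrays of a group, and a gene was its kept probe with the highest mean, which left 28553 features. limma 3.58.1 (lmFit, eBayes, two-sided) in R 4.3.3 compared 2 samples with 2 (prior degrees of freedom 2.37, residual 2). It was run on simulated data with planted log2 changes larger than any Hox difference here. That run does not show what the fit can find at the size of the Hox differences.

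Full statistics were printed for the 4 Hox genes of smallest p in each direction with non-overlapping samples and for genes below background in 1 group, and up to 3 members of each list were named. The values of 1 Hox gene are not reported here, though it is in the counts and medians. Hoxd4, Hoxa5, Hoxa9, Hoxa11 and Hoxc6 were described further after their values were seen. The members and lists were chosen with earlier results of these data known. Same-numbered samples did not deviate together (r = −0.03), so they were not paired. Replicates 1 and 2 shared a scan and replicate 3 had another. Alternatives were other normalisations (quantile, median, normexp with offset 50), filters, probe rules, variance models, blocks, samples left out and each scan alone, the last chosen after seeing the data.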

Additional observations from a re-analysis of the deposited data

How the results depend on the processing

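No Hox gene was called under any alternative except the 6 arrays as 6 samples, which treats the nearly identical arrays as independent. That fit called 6 Hox genes higher (among them Hoxa6, Hoxb5, Hoxc4, Hoxc5 and Hoxc8) and 3 lower (Hoxa10, Hoxb4 and Hoxc10), or 27.3% of 33 against 34.2% of all features. Over all features it called 7087 higher and 2675 lower. Normexp called 94 and 89, the variance trend with robust estimation 560 and 344, the scan as a block 35 and 48, and the median shift 1 higher. With replicates left out, calls ranged from 0 to 1111 higher and 0 to 265 lower. Without si-NC replicate 2 they were 217 and 59, and the highest counts came without si-NC replicates 1 and 3, with a lowest Hox adjusted p of 0.0655. With the replicate block 0 features were called and the lowest Hox adjusted p was 0.189. No paired reading was made of it. The Hox median ranged from −0.045 (without si-SYISL replicate 2) to 0.036 with 1 replicate left out, and was 0.06 without si-SYISL replicates 1 and 3. Relative differences ranged from −0.72 to −0.51 for Hoxa10, −0.56 to −0.40 for Hoxc10, −1.06 to −0.42 for Hoxb4, and 0.23 to 0.62 for Hoxb5. Direction turned for Hoxc8 under quantile normalisation (−0.0013), Hoxb1 in the series matrix (−0.018), Hoxa11os without si-SYISL replicates 1 and 3 (−0.048), and Hoxa9 with 6 arrays (−0.024), without si-NC replicate 2 (−0.38, against up to 0.20 with another left out) and within the scan of replicate 3 (−0.46); the cause was not tested. Of the 19 other Hox genes, 13 turned sign in up to 7 of 22 alternatives, with main values from −0.20 to 0.26. Hox probes above background on all arrays numbered 29, against 31 when 2 of 3 arrays of each group sufficed and 40 by the positive and significant flag. Dim probes near background limit what Hoxb1, Hoxd8, Hoxc8 and Hoxd9 can show.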
